A study of Homo sapiens with 6 samples.

Results

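C-type lectins, selectins and Siglecs are proteins that read sugars on other molecules and cells. A fixed list of 53 genes of these families was looked up on the array by RefSeq accession, and 49 had a probe set. CLEC4M, CLEC16A, MRC1 and CD93 were matched to none and are not analysed here. The 49 genes are part of 927 that could be named on the array. MAG, CLEC7A and ATRN had more than 1 probe set, and each gene was represented by its brightest.

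The cells were HCT116, a microsatellite-unstable line from a colorectal cancer, as double stable transfectants with a doxycycline-inducible gene. By the sample titles that gene was wild-type ACVR2, an activin receptor, whereas the labels of the cell source name TGFBR2 and AIM2 beside it. All 6 samples received activin A, a ligand of that receptor. Doxycycline was given to 3 of them and withheld from the other 3, which asks whether glycan-related genes differ when the receptor can be made. The labels state neither the dose and time of doxycycline, nor whether the transfectants were 1 clone, nor whether replicates were separate cultures, so the p-values cover the spread among these arrays and it may be a technical one. Cells lacking the inducible gene were not among the samples, so effects of the drug and of the receptor cannot be told apart.

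C-type lectins share a fold that in many members binds a sugar through calcium, as in the mannose-binding receptors of dendritic cells. Other members of the fold have lost that and bind proteins, as natural killer cell receptors do. Selectins hold leukocytes to vessel walls through sialylated, fucosylated glycans. Siglecs are immunoglobulin-type receptors of leukocytes and glia that bind sialic acid, and most of the CD33-related ones carry inhibitory tyrosine motifs. Tumour cells are usually studied as carriers of the sugars these receptors read, while the receptors themselves sit mainly on blood, vessel and stromal cells. A few, such as attractin (ATRN) and the collagen receptor Endo180 (MRC2), are made outside the immune system.

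Replicate 3 without doxycycline stood apart from the other arrays. Its correlations with them over all probe sets ran from 0.982 to 0.991, against 0.995 to 0.999 among the other 5. Differences are therefore also given without it for each named lectin gene that it moved by over 1.5 times. The probe set of ACVR2A, the targeted gene, ranged from 8.02 to 8.15 log2 units with doxycycline and from 8.07 to 8.70 without, so its groups overlapped and it was not higher with the drug (difference -0.26, SE 0.16; limma, adjusted p = 0.710). Whether its probes lie in the introduced sequence is not known, and the groups are named by their labels.

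Most lectin genes gave low signals. Signals are log2 values after RMA, and 3 bands were set from the mean of each probe set over the 6 arrays: bright from the median of all probe sets (7.63), dim below their lower quartile (6.88), and a middle band between. Of the 49 genes 6 were bright, 22 lay in the middle band and 21 were dim. The bright band held 12.2% of the lectin genes, where by its definition it holds 50.0% of all probe sets, and the dim band held 42.9% of them, beside 315 of 1259 probe sets. The table has no detection calls, so a dim or middle signal may be background. The bright band is a rank among probe sets, so a signal close above its cut may be background too. Since signal also depends on the probes, the bands do not rank one gene's expression against that of another. The 6 bright genes were KLRK1, MRC2, CD248, CLEC11A, ATRN and CD33. Of these KLRK1 (mean 7.70), CD33 (7.75) and CD248 (7.97) lay nearest the cut of 7.63, and the bands do not show that they were expressed.

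**Figure D1:**
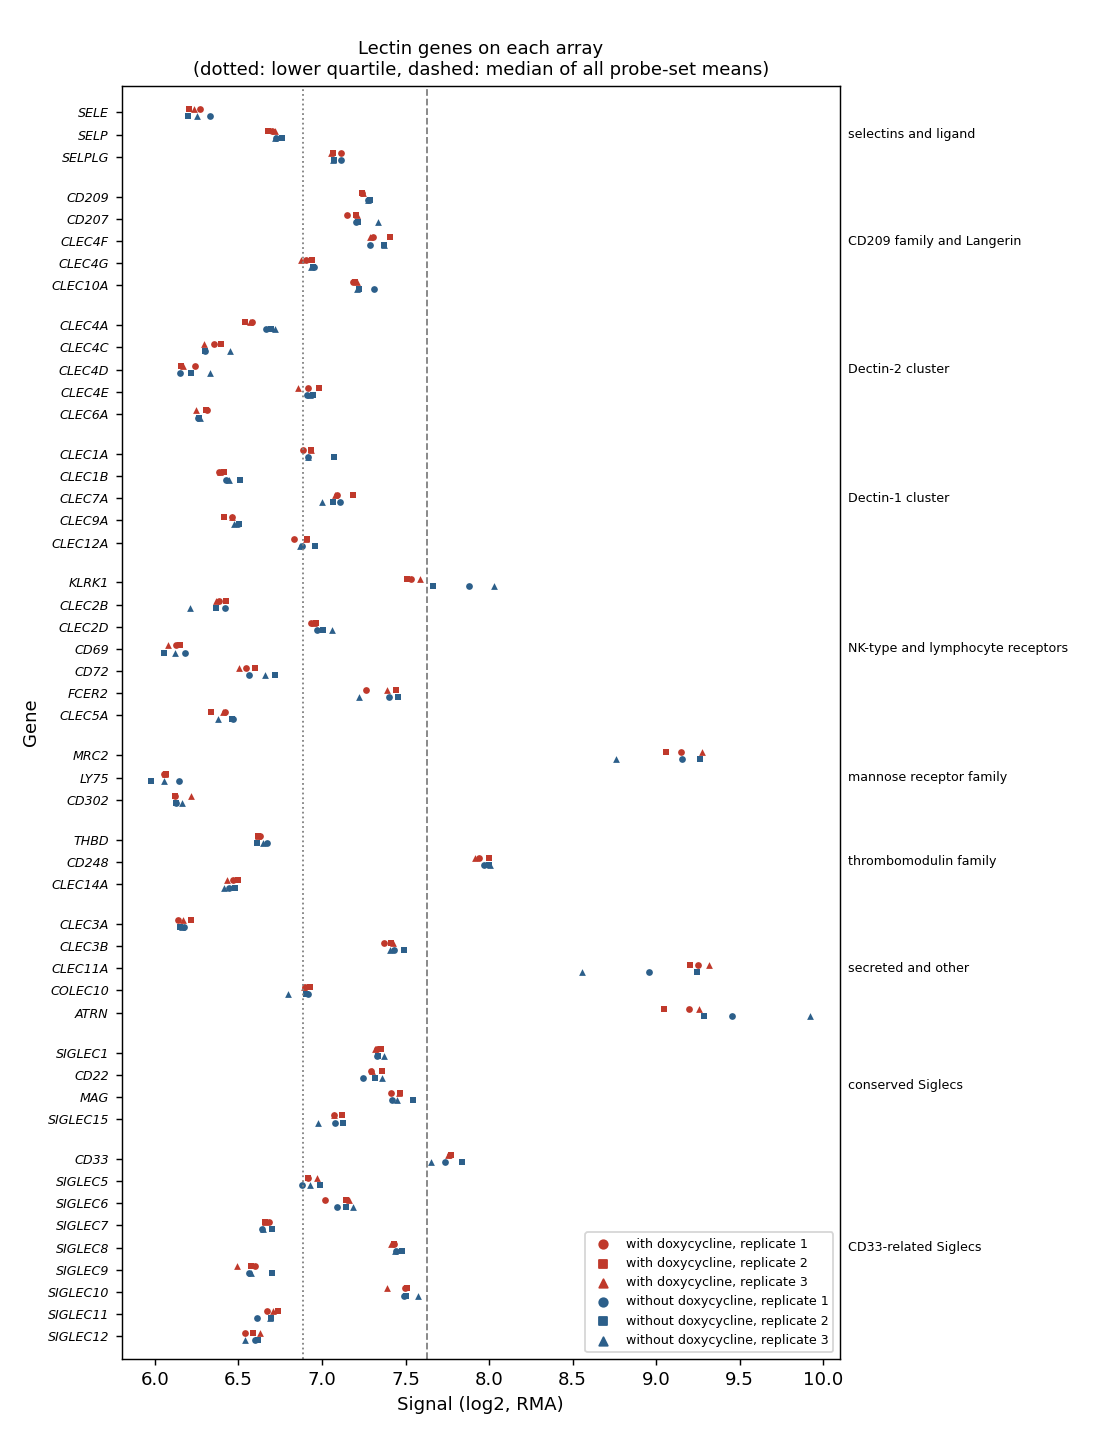
Signal (log2, RMA) of 49 lectin genes on each of 6 arrays, ordered by role, with the lower quartile (6.88, dotted) and the median (7.63, dashed) of all probe-set means. Red symbols are arrays with doxycycline and blue ones without, and the symbol shape gives the replicate. Only KLRK1, MRC2, CD248, CLEC11A, ATRN and CD33 have means at or above the dashed line, and replicate 3 without doxycycline (blue triangles) lies away from the other arrays for MRC2, CLEC11A and ATRN.

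KLRK1 encodes NKG2D, the activating receptor by which natural killer and T cells sense stress ligands on tumour cells. It read 7.53, 7.51 and 7.58 with doxycycline (replicates 1, 2 and 3) and 7.88, 7.67 and 8.03 without. All 3 arrays with doxycycline lay below all 3 without, and the arrays without it were spread more widely. The difference was -0.32 (SE 0.096; limma, adjusted p = 0.477), or 1.25-fold higher without doxycycline, so it did not pass over all probe sets, and the exact permutation p was 0.1, the smallest that 3 arrays against 3 allow. Without replicate 3 of the cells lacking doxycycline the difference was -0.23. This gene overlaps the read-through gene KLRC4-KLRK1, and the files do not tell which of these transcripts the probe set saw.

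ATRN encodes attractin, a large protein with a C-type lectin domain that occurs in a membrane and a secreted form. Its brighter probe set read 9.20, 9.05 and 9.26 with doxycycline and 9.45, 9.29 and 9.92 without. The groups did not overlap, yet replicate 2 without doxycycline lay close above the highest array with it. The difference was -0.39 (SE 0.17; limma, adjusted p = 0.673), and -0.20 without replicate 3 of the cells lacking doxycycline. The other ATRN probe set, which carries the accession of another transcript, differed by -0.29 (SE 0.19) with overlapping groups.

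CLEC11A encodes a secreted growth factor for blood stem cells and bone. It read 9.25, 9.20 and 9.32 with doxycycline and 8.96, 9.25 and 8.56 without. Replicate 2 without doxycycline lay among the arrays with it, so the groups overlapped. The difference of 0.34 (SE 0.17; limma, adjusted p = 0.692) shrank to 0.15 without replicate 3 of the cells lacking doxycycline. MRC2, the endocytic collagen receptor Endo180, read 9.15, 9.06 and 9.28 with doxycycline and 9.15, 9.26 and 8.76 without. Its difference was 0.10 (SE 0.14; limma, adjusted p = 0.807) and turned to -0.047 without that array, whose value alone lay below the range of the other 5.

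CD248 encodes endosialin, a receptor of stromal cells and pericytes. It read 7.937, 8.002 and 7.916 with doxycycline and 7.972, 8.002 and 8.006 without, a difference of -0.042 (SE 0.037; limma, adjusted p = 0.730). CD33, the myeloid Siglec after which its subfamily is named, read 7.77, 7.77 and 7.76 with doxycycline and 7.73, 7.84 and 7.65 without. Its groups overlapped, and the difference of 0.026 (SE 0.055; limma, adjusted p = 0.883) turned to -0.020 without replicate 3 of the cells lacking doxycycline. The 95% confidence interval of the difference ran from -0.13 to 0.052 for CD248 and from -0.11 to 0.16 for CD33.

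**Figure D2:**
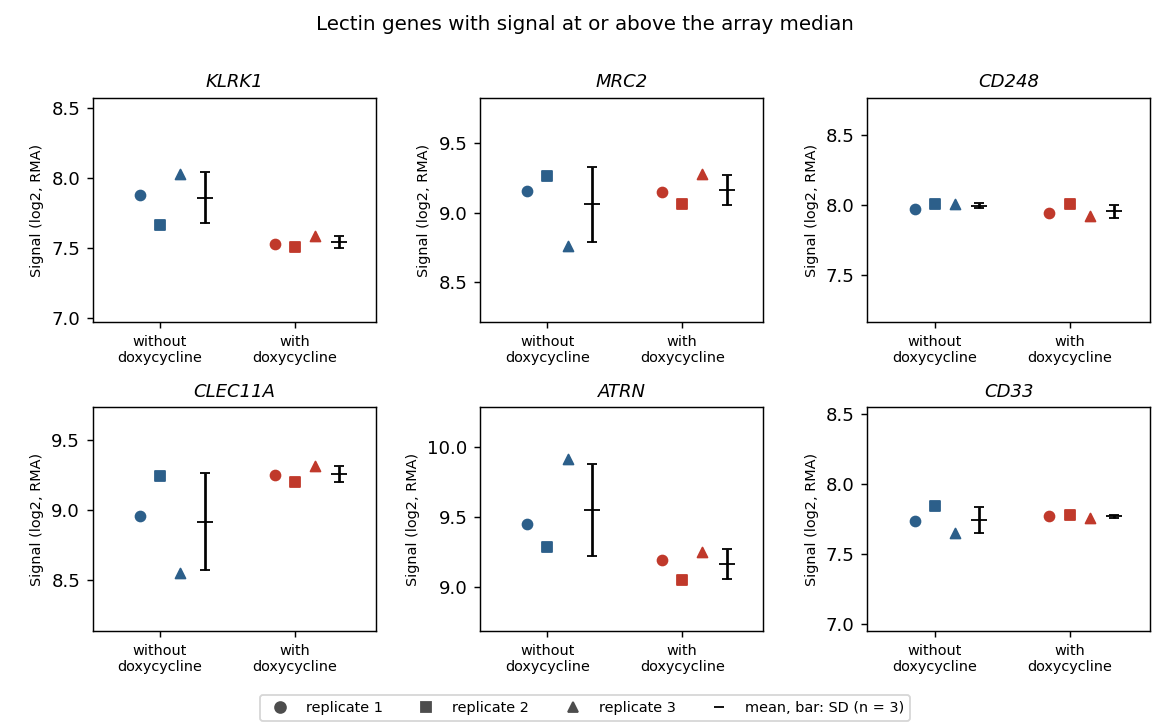
Signal (log2, RMA) of the 6 bright lectin genes on each array, without doxycycline (blue) and with it (red), every panel spanning the same 1.6 log2 units. Horizontal marks and bars are means and SDs (n = 3). The groups do not overlap for KLRK1 and ATRN, and for CLEC11A, MRC2 and ATRN the triangle without doxycycline (replicate 3) lies far from the other 2 arrays of its group.

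The array that stood apart was at the edge of the values for every bright lectin gene. Replicate 3 without doxycycline was above or below all other 5 arrays for 6 of 6 bright genes, against 75.7% of all bright probe sets. For the other 43 lectin genes it was so for 15, against 47.4% of all middle and dim probe sets. From the mean of the other 2 arrays of its group it departed by 0.55 for ATRN and 0.26 for KLRK1 upward, and by -0.55 for CLEC11A and -0.45 for MRC2 downward. The part of this array in the differences of these 4 genes is given by the values without it above. The median SD of the 6 bright genes was 0.22 without doxycycline and 0.051 with it, beside 0.20 and 0.063 over all bright probe sets.

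None of the selectins and their ligand was bright. SELP, the platelet and endothelial selectin, read 6.70, 6.68 and 6.72 with doxycycline and 6.73, 6.76 and 6.72 without (difference -0.035, SE 0.033; limma, adjusted p = 0.730). Its groups overlapped. SELE, the selectin of activated endothelium, was also dim, and SELPLG, which encodes the leukocyte ligand PSGL-1, lay in the middle band. The 3 differences ran from -0.035 to -0.0053, and 0 passed.

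Among the receptors with which dendritic cells and macrophages bind mannose, fucose or GalNAc, no gene was bright. CD209 (DC-SIGN), CD207 (Langerin), CLEC4F, CLEC4G and CLEC10A all lay in the middle band, between 6.87 and 7.41 on every array. CD207 read 7.15, 7.20 and 7.21 with doxycycline and 7.21, 7.22 and 7.33 without, and its highest array was replicate 3 without doxycycline. Its difference was -0.065 (SE 0.048; limma, adjusted p = 0.721), and -0.025 without that array. CD209 separated the groups by very little, with a difference of -0.036. The 5 differences ran from -0.065 to -0.011, all negative on the deposited scale, 4 of 5 with each array centred on its median, and 0 passed.

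CLEC4A was the dim gene with the smallest p. It encodes DCIR, an inhibitory receptor of myeloid cells. Its arrays read 6.58, 6.54 and 6.57 with doxycycline and 6.66, 6.69 and 6.72 without. The groups did not overlap, and the difference was -0.13 (SE 0.034; limma, adjusted p = 0.477, exact permutation p = 0.1). It stayed between -0.14 and -0.11 when each array was left out in turn. The other genes of its cluster, CLEC4C (BDCA-2 of plasmacytoid dendritic cells), CLEC4D, CLEC4E (Mincle, a sensor of mycobacterial glycolipid) and CLEC6A (Dectin-2), differed by -0.045 to 0.021 with overlapping groups.

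The Dectin-1 cluster holds receptors for fungal glucan (CLEC7A), for podoplanin (CLEC1B), for exposed actin of dead cells (CLEC9A) and an inhibitory receptor (CLEC12A). CLEC1B read 6.38, 6.41 and 6.39 with doxycycline and 6.43, 6.51 and 6.44 without. Its groups were separated by a narrow gap, with a difference of -0.063 (SE 0.036; limma, adjusted p = 0.692). The 5 genes of this cluster, CLEC1A included, differed by -0.063 to 0.058 and none was bright, and 0 passed. The other CLEC7A probe set was at 0.016, beside 0.058 for the brighter one.

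CLEC2D encodes LLT1, the ligand of the natural killer receptor KLRB1, and CLEC2B encodes AICL, the ligand of KLRF1. CLEC2D read 6.93, 6.96 and 6.95 with doxycycline and 6.97, 7.01 and 7.06 without, with groups apart by a narrow gap (difference -0.062, SE 0.038; limma, adjusted p = 0.702). Without replicate 3 of the cells lacking doxycycline it was -0.038. CLEC2B read 6.38, 6.43 and 6.37 with doxycycline and 6.42, 6.37 and 6.21 without. Its groups overlapped, and the difference of 0.061 (SE 0.064; limma, adjusted p = 0.740) was -0.0011 without replicate 3 of the cells lacking doxycycline. The lymphocyte and myeloid receptors CD69, CD72, FCER2 (CD23) and CLEC5A lay in the middle or dim band, at -0.099 to 0.0044.

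Several genes that epithelial or many other cells are known to make were nonetheless dim here. LY75, the endocytic receptor DEC-205, read 6.05, 6.06 and 6.06 with doxycycline and 6.14, 5.98 and 6.05 without. CD302, a small member of the mannose receptor family, read 6.12, 6.12 and 6.22 with doxycycline and 6.12, 6.13 and 6.16 without. THBD, thrombomodulin, read 6.63, 6.62 and 6.62 with doxycycline and 6.67, 6.61 and 6.65 without. All 3 overlapped between groups, with differences of 0.0023 (SE 0.050; limma, adjusted p = 0.992), 0.016 (SE 0.041; limma, adjusted p = 0.913) and -0.022 (SE 0.033; limma, adjusted p = 0.828). Without replicate 3 of the cells lacking doxycycline LY75 was at 0.00034 and CD302 at 0.028. Of 9 genes listed as epithelial or broadly expressed 8 were measured, and 3 of them were bright (ATRN, CLEC11A and MRC2), 1 was in the middle band (CLEC2D) and 4 were dim. Of the other 41 lectin genes, mostly of blood and vessel cells, 3 were bright, 21 in the middle band and 17 dim.

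The remaining C-type lectins are endothelial or secreted. CLEC14A, an endothelial relative of thrombomodulin, and CLEC3A, a cartilage protein, were dim. CLEC3B (tetranectin) and COLEC10, a collectin, lay in the middle band. The 4 differences ran from -0.041 to 0.034, and 0 passed.

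Siglecs made up 13 of the genes, and 0 of them passed. Apart from CD33 they lay between 6.49 and 7.57 on every array, 8 of them in the middle band and 4 dim. SIGLEC10, an inhibitory Siglec that binds CD24, read 7.50, 7.51 and 7.39 with doxycycline and 7.49, 7.50 and 7.57 without. Its groups overlapped (difference -0.058, SE 0.048; limma, adjusted p = 0.730). The difference was -0.033 without replicate 3 of the cells lacking doxycycline and -0.021 without replicate 3 with it. SIGLEC15, a Siglec of osteoclasts and tumour-associated myeloid cells, read 7.07, 7.12 and 7.07 with doxycycline and 7.08, 7.13 and 6.98 without. Its difference of 0.026 (SE 0.049; limma, adjusted p = 0.866) was -0.015 without replicate 3 of the cells lacking doxycycline. Over the 13 Siglecs, among them the macrophage receptor SIGLEC1, the B-cell receptor CD22 and the myelin protein MAG, differences ran from -0.058 to 0.038. The split was 7 higher and 6 lower, 8 and 5 with each array centred on its median, and 3 and 10 without replicate 3 of the cells lacking doxycycline. The further 2 MAG probe sets were at -0.061 and -0.028, beside -0.021. SIGLEC5 and SIGLEC14 are near-identical in part, as are SIGLEC11 and SIGLEC16, so their probe sets may share transcripts.

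Across all 49 genes 0 passed an adjusted p of 0.05 with limma, and over all probe sets the share was 0% as well (0 of 1259). The smallest adjusted p among the 49 was 0.477. At an unadjusted p under 0.05 there were 2 genes, KLRK1 and CLEC4A, or 2 of 49, beside 7.78% of all probe sets. Both were lower with doxycycline, a direction that 4.53% of all probe sets took at that p, beside 3.26% that were higher, where the lectins had 0. The lectin genes did not hold more such values than the array as a whole.

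Of the 49 genes 18 had higher and 31 lower values with doxycycline, and the median difference was -0.018, against -0.0081 over all probe sets. After each array was centred on its median the split was 25 higher and 24 lower. The medians were then 0.0015 for the lectins and 0.012 over all probe sets, since centring shifts every probe set alike. Without replicate 3 of the cells lacking doxycycline the split was 13 and 36, with medians of -0.021 and -0.017. The split of the small differences thus depends on the scaling and on that array. Groups did not overlap for 8 genes, all lower with doxycycline: CD209, CLEC4A, CLEC1B, CLEC9A, KLRK1, CLEC2D, ATRN and SIGLEC8. That is 16.3% of the 49 genes, close to the 15.8% of all probe sets whose groups did not overlap in either direction (8.26% lower, 7.55% higher). No lectin gene lay above. With centred arrays 4 genes lay below, KLRK1, CLEC4A, ATRN and CLEC10A, and 1 above, COLEC10, which is 8.16% and 2.04% of the 49, beside 4.77% of all probe sets below and 12.2% above. After a further quantile normalization 6 genes lay below and 0 above, which is 12.2% and 0% of the 49. Over all probe sets 6.59% lay below and 9.37% above in that setting. The 6 genes were KLRK1, CLEC4A, ATRN, CLEC1B, CLEC9A and CLEC2D, and of these KLRK1, CLEC4A and ATRN lay below under every scale.

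For the 43 genes in the middle and dim bands the data set narrow limits. Their differences ran from -0.13 to 0.061, and every 95% confidence interval lay between -0.23 and 0.22 log2 units. Differences of at most 0.13 to either side were also found for 93.0% of all middle and dim probe sets. Where a signal is mostly background a true change would be understated, so these limits hold for the signal and not for the transcript. The median SD of these 43 genes was 0.032 with doxycycline and 0.048 without.

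**Figure D3:**
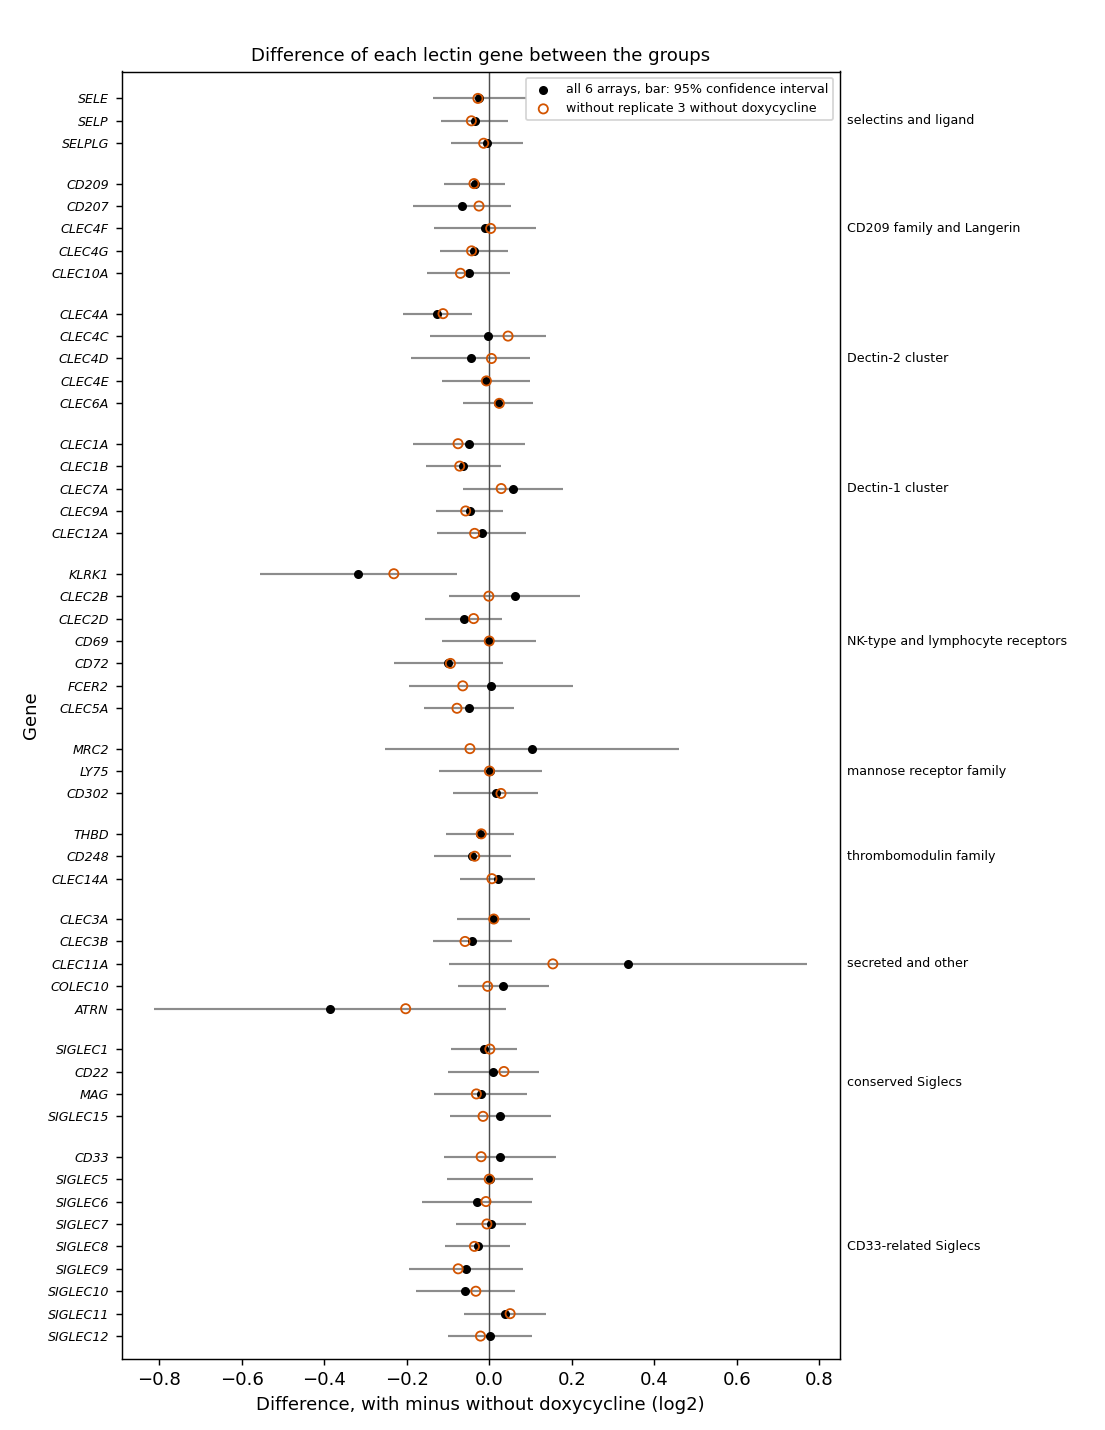
Difference with minus without doxycycline (log2) of 49 lectin genes, with 95% confidence intervals from limma over all 6 arrays (black) and the value without replicate 3 of the cells lacking doxycycline (open orange circles). Intervals for KLRK1 and CLEC4A exclude 0 before adjustment for the number of probe sets. ATRN, CLEC11A, MRC2 and KLRK1 have the widest intervals and the largest shifts once that array is left out.

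Sequence before the start of each gene was taken from RefSeq (GRCh38.p14) for the 34 of 53 listed genes with an entry, 32 of them with a probe set. Over all genes there were 35116 entries for 27305 symbols. Where a gene had more than 1 entry the first was used, so its other starts are not covered. The 250 bases upstream were searched for the dinucleotide CG, which reads the same on both strands. Its frequency was expressed as the ratio of observed to expected from the C and G content. CpG-rich starts are common in genes that many tissues use, and CpG-poor ones in genes of single cell types. The 4 windows below were chosen after their values were seen, to show a bright gene with a CpG-rich start (ATRN), a bright gene with a ratio below 0.6 (CLEC11A, at 0.49), a dim gene with a CpG-rich start (CD302) and a myeloid receptor in the middle band (CD209). Each is written 5′ to 3′ on the strand of the gene, with CG in capitals.
ATRN: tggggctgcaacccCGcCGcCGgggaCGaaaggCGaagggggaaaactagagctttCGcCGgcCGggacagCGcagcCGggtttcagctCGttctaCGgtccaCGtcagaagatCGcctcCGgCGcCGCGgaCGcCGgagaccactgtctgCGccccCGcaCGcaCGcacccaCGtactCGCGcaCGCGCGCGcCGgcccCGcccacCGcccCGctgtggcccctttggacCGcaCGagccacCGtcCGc
CLEC11A: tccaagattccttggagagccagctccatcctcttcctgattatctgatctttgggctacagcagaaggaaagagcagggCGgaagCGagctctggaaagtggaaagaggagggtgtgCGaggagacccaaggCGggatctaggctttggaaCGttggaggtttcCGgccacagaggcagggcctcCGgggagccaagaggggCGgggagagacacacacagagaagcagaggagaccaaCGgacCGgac
CD302: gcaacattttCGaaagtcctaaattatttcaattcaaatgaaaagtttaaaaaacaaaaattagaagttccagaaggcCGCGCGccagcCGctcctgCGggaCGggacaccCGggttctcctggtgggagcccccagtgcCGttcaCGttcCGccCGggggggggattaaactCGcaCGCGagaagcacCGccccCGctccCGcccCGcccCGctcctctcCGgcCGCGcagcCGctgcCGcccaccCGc
CD209: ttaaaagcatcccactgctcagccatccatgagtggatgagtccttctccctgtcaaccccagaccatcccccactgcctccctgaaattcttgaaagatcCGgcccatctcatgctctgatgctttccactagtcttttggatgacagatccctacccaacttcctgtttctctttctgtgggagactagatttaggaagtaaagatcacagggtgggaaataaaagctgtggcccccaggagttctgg

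The windows lie at chr20:3470768-3471017 (plus strand) for ATRN, chr19:50723114-50723363 (plus) for CLEC11A, chr2:159798209-159798458 (minus) for CD302 and chr19:7747535-7747784 (minus) for CD209. They hold 39, 10, 26 and 1 CG. A ratio of at least 0.6 was found in 4 of the 32 windows of measured lectin genes (12.5%), against 47.4% of the windows of all 27305 genes in the table. These were ATRN (1.18), CD302 (1.12), LY75 (0.72) and CLEC14A (0.71). The first is bright and the other 3 are dim, so a CpG-rich window went with high signal in 1 of 4 cases. Over all genes on the array such a window was found for 82.4% of bright, 46.5% of middle and 32.1% of dim genes. All 12 Siglecs with an entry were below 0.6, CD33 at 0.094 included. KLRK1, MRC2 and CD248 were matched to no entry.

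**Figure D4:**
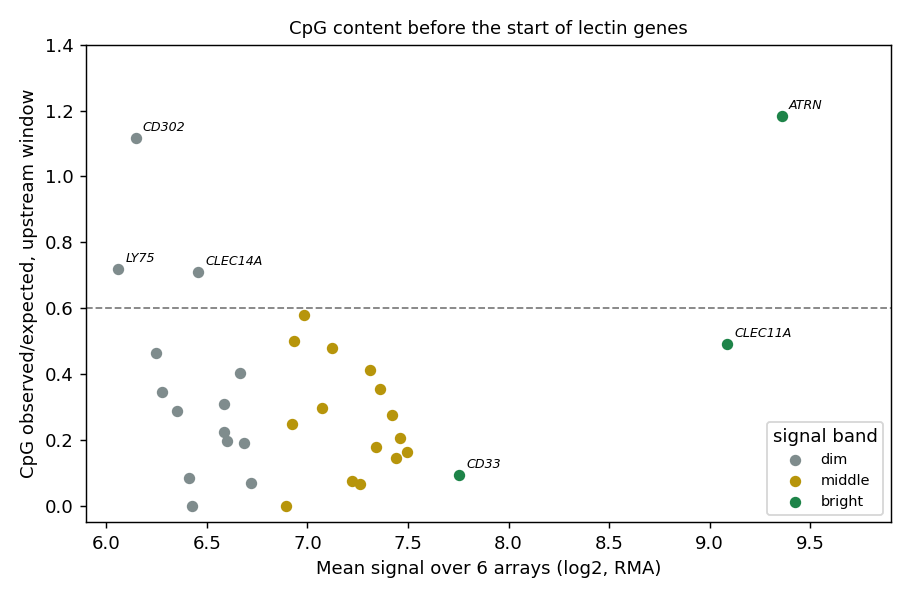
Ratio of observed to expected CpG in the 250 bases upstream of 32 lectin genes, against their mean signal over 6 arrays (log2, RMA), coloured by signal band, with a dashed line at a ratio of 0.6. Only ATRN combines a bright signal with a ratio above 0.6, while CD302, LY75 and CLEC14A lie above the line with dim signals.

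Genes that act beside these lectins were taken from fixed lists. Of 38 other genes with a C-type lectin domain or a related fold 30 were measured. With doxycycline 11 were higher and 19 lower (15 and 15 with each array centred on its median), and 0 passed. CLEC18A, whose paralogs are near-identical, was at -0.21 (SE 0.049; limma, adjusted p = 0.477) and CLEC12B at -0.099 (SE 0.032; limma, adjusted p = 0.482). The median of the 30 was -0.027, and 6 of the 30 were bright. Of genes that build or carry selectin ligands 19 of 22 were measured, 12 of them bright, and 0 passed. Their median difference was 0.0047. The split was 10 higher and 9 lower, 13 and 6 with each array centred, and 8 and 11 without replicate 3 of the cells lacking doxycycline. C1GALT1C1, the chaperone of core 1 O-glycan synthesis, was at 0.25, and the tyrosine sulphotransferases TPST1 and TPST2, which act on PSGL-1, were at 0.24 and 0.15.

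Of genes that make, move or remove the sialic acids that Siglecs bind, 22 of 25 were measured, 13 of them bright. There were 10 higher and 12 lower, 0 passed and the median was -0.022. At an unadjusted p under 0.05 with limma there were 5 of the 22, 4 higher and 1 lower. The lower one was the sialyltransferase ST3GAL1, at -0.19. Beside this, 7.78% of all probe sets and 73 of 630 bright ones reached that p. The sialidase NEU1 was at 0.31 and the sialyltransferases ST6GALNAC5 and ST6GALNAC2 at 0.17 and 0.28 (limma, adjusted p = 0.477, 0.477 and 0.478). The other, less bright NEU1 probe set was at 0.40 (SE 0.059; limma, adjusted p = 0.213), and neither NEU1 probe set overlapped between groups. The bright share was thus 59.1% for this list, which includes the sialidases NEU1, NEU2, NEU3 and NEU4 and the CMP-sialic acid transporter SLC35A1. It was 63.2% for the selectin ligand list with its carriers, beside 12.2% for the lectins. Some of these bright genes lay near the cut of 7.63, among them NEU2 (mean 7.80), NEU4 (7.99), FUT5 (7.79) and MADCAM1 (7.80). The shares therefore compare ranks of signal and do not tell which genes were expressed. Of 11 listed genes of lectin receptor signalling 0 were matched on the array.

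Markers of cell types were few on this array. Of 14 colon epithelial markers 4 were measured: MUC1 was bright at 8.62 to 8.89, MUC2 and LGALS4 were in the middle band and MUC13 was dim. The others, EPCAM and CDH1 among them, were not matched, so the epithelial identity of the cells could be checked only in part. Of 12 leukocyte markers CSF1R and NCAM1 were measured, both in the middle band between 6.98 and 7.39. Of 5 endothelial markers PECAM1 lay in the middle band and VCAM1 was dim. All 8 markers had 0 calls, and those of leukocytes and endothelium spanned 6.30 to 7.39, within the range of the middle and dim lectins.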

How the data were processed

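Total RNA was extracted with Trizol and 0.5 µg of it was made into biotinylated cRNA as Affymetrix prescribes, per the labels' protocols. The deposited table holds log2 values for 1259 probe sets on 6 arrays, which the authors made with RMA, per the submitters' processing notes (background correction, quantile normalization, probe summary). The version and genome build are not given in the sources used here. Probe sets were named through RefSeq accessions without version (GRCh38.p14 table), and 1043 (82.8%) received 1 symbol. Groups, 3 arrays each, were set against each other in R 4.3.3 using limma 3.58.1 (lmFit, eBayes, two-sided) over the whole table, with Benjamini-Hochberg adjustment over 1259 probe sets at 0.05 and no filter or block. An exact two-sided permutation test was added for single genes. Precision is limited by how few arrays there are.

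The members and lists were chosen with earlier results of these data known. Values on every array are given for 17 genes: those with an unadjusted p under 0.05, those of the epithelial list, the bright ones, and in each of the role groups the one with the smallest p. In related lists up to 3 genes with the smallest p are named, and a further gene that this rule takes is left out. Others appear where a count or list is spelled out. Alternatives covered scaling, a filter on dim probe sets, the variance prior, array weights, a replicate block, the mean of a gene's probe sets and leaving out each array. In simulated data for this comparison of 1259 probe sets, 200 of them changed, the fit recovered 84% of planted differences of 0.5 log2 units and 88% of those of 1 unit, with 9 false calls among 181. The simulated noise was independent between arrays, had the same SD in both groups and held no array that stood apart. These shares therefore do not tell how often such a difference would be found in the real arrays.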

Additional observations from a re-analysis of the deposited data

How the results depend on the processing

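No lectin gene passed an adjusted p of 0.05 under any alternative run. Over all probe sets 1 passed with array weights and 0 otherwise. The weights' estimation stopped short of its tolerance. The number of lectin genes at an unadjusted p under 0.05, 2 in the main analysis, was 1 of 28 with dim probe sets left out (CLEC4A is dim), beside 85 of the 944 probe sets kept, 5 with array weights (KLRK1, CLEC4A, ATRN, CLEC10A and CLEC11A), beside 19.5% of all probe sets, and 1 to 4 when single arrays were left out. It was 1 (CLEC4A) without replicate 1 or without replicate 2 with doxycycline, beside 3.57% and 4.21% of all probe sets, and 4 (KLRK1, CLEC4A, ATRN and CLEC11A) without replicate 2 of the cells lacking it, when 20.5% of all probe sets reached that p. The median difference of the lectin genes turned to 0.0015 with each array centred on its median, beside 0.012 over all probe sets. It ran from -0.027 to -0.0080 over the fits without 1 array. Of 330 values for the 26 genes that the naming rule takes under the alternatives 9 turned and 321 kept their direction and side of the threshold. LY75 turned to -0.0050 after a further quantile normalization and to -0.055 with array weights, and CLEC2B to -0.0077 with array weights. Over the fits without 1 array LY75 ran from -0.039 to 0.045, CD302 from -0.017 to 0.032, CLEC2B from -0.0011 to 0.11, MRC2 from -0.047 to 0.21, SIGLEC15 from -0.015 to 0.060 and CD33 from -0.020 to 0.074. KLRK1 ran from -0.41 to -0.23, ATRN from -0.52 to -0.20, CLEC11A from 0.15 to 0.50, CLEC2D from -0.084 to -0.038, SIGLEC10 from -0.080 to -0.021, CD207 from -0.088 to -0.025, CLEC1B from -0.078 to -0.038, CD248 from -0.067 to -0.024, THBD from -0.039 to -0.0076 and SELP from -0.045 to -0.023. Beyond what the fits show by construction, the cause was not tested. Deviations of same-numbered arrays from their group means correlated at -0.15, -0.043 and -0.16 for replicates 1, 2 and 3. Array 1 with doxycycline correlated best with array 3 without it, at 0.21. These values gave no sign of pairing by number. Being weak and drawn from means of 3 arrays, they cannot tell whether same-numbered arrays were handled together. With the replicate block 3 lectin genes (ATRN added) and 81 probe sets reached an unadjusted p under 0.05, against 2 and 98, and 0 passed.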

Other observations

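KLRK1 lies on the chromosome beside the KLRC genes, which encode receptors of the NKG2 family, and KLRC1 and KLRC3 of these were looked at after the values of KLRK1 were seen. Both were in the bright band. KLRC1, which encodes the inhibitory receptor NKG2A, read 8.68, 8.79 and 8.72 with doxycycline and 8.82, 8.62 and 8.05 without. KLRC3 read 8.67, 8.63 and 8.65 with doxycycline and 8.67, 8.71 and 8.17 without. For both genes replicate 3 without doxycycline was the lowest array, whereas for KLRK1 it was the highest. The differences were 0.24 (SE 0.20) for KLRC1 and 0.13 (SE 0.15) for KLRC3, and 0.013 and -0.042 without that array. KLRC genes are near-identical, so their probe sets may read the same transcripts. KLRD1, which encodes CD94, the partner of NKG2A, read between 7.72 and 7.83 on all arrays (difference -0.043, SE 0.037). The natural killer receptors KLRB1, KLRF1 and KLRG1 were dim, with differences between -0.034 and 0.049. None of these genes passed (limma, adjusted p from 0.730 to 0.759).

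Among the other genes with a C-type lectin domain or a related fold, CD44 and VCAN showed the same array apart. CD44, the hyaluronan receptor, read 12.8 on replicate 3 without doxycycline and 11.7 to 12.0 on the other arrays. VCAN, the proteoglycan versican, read 10.4 there and 8.62 to 9.27 elsewhere. Their differences of -0.39 and -0.55 were -0.11 and -0.070 without that array.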
